A study of Mus musculus with 12 samples.

Results

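The effect of a high-fat diet (HFD) on hippocampal RNA was taken as an average over both genotypes, with all 12 mice of the series in the comparison: 6 HFD-fed mice, 3 wild-type and 3 App NL-F/NL-F, against 6 mice on a regular diet (RD), again 3 wild-type and 3 App NL-F/NL-F. The contrast was the mean of the 2 HFD group means minus the mean of the 2 RD group means, so that each genotype counted equally, and it is called the diet effect here. All mice were males of 18 months in single cages, fed 1 of the diets for the last 12 months, since they were 6 months old. The App NL-F/NL-F mice, here App knock-in mice, are homozygous for an App gene with humanized Aβ and the Swedish and Iberian mutations, expressed from its endogenous promoter on a C57BL/6J background, and were bred apart from the wild-type line. The labels call the HFD-fed mice of both genotypes diabetic. The HFD was a custom diet with added cholesterol from another supplier than the RD, so fat content and the rest of the composition cannot be told apart. One Affymetrix Mouse Gene 2.0 ST array per mouse measured 41345 transcript clusters, groups of probes summarised at the level of genes, on the log2 scale.

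Fat-rich feeding over months makes mice obese and insulin resistant. The hippocampus makes its own cholesterol, since lipoprotein cholesterol does not cross the blood-brain barrier, and its glia and vessel cells stand between the circulation and the neurons. Microglia are the phagocytes of the brain, astrocytes regulate its extracellular milieu and turn reactive in disease, and pericytes and smooth muscle cells wrap its vessels. In a dissected tissue, more cells of a type and more RNA per cell cannot be told apart.

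The arrays were alike, with an r of 0.982 to 0.988 between any pair over all clusters, and 23.6% to 24.3% of the clusters of each array lay above an intensity of 100. Identity genes of the hippocampus were present in both diets. The list mean of 7 dentate granule cell genes was 7.45 to 7.83 in HFD-fed and 7.40 to 7.66 in RD-fed mice, and that of 12 CA pyramidal cell genes 7.80 to 7.93 in HFD-fed and 7.67 to 7.94 in RD-fed mice. Genes of the choroid plexus, a secretory epithelium next to the hippocampus, varied widely between mice of either diet. The mean of its 12 genes was 5.46 to 7.39 in HFD-fed and 5.34 to 7.51 in RD-fed mice, and Ttr, the transthyretin gene that the epithelium expresses most, had 8.67 to 13.28 in HFD-fed and 9.14 to 13.24 in RD-fed mice.

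No cluster passed an adjusted p of 0.05 in limma's test of the diet effect (0 of 41345, 0% called), and the smallest adjusted p = 0.274 belonged to a cluster with no symbol. At an unadjusted p under 0.05, 1101 clusters were higher on the HFD (2.66%) and 952 lower (2.3%), or 4.97% in either direction, a share no larger than the threshold itself. The median diet effect was 0.00 and 49.6% of clusters were above 0. Among 9858 clusters whose mean exceeded an intensity of 100 the directions were less even, with 230 higher (2.33%) and 104 lower (1.05%), or 206 and 150 after each array was centred on its median. Before centring, protein-coding clusters with 1 symbol had 80 higher and 70 lower of 7093. Clusters with no symbol had 88 and 29 of 2084, and those with several symbols 24 and 1 of 435. The 6 HFD values lay wholly above the 6 RD values in 70 clusters (0.169%) and wholly below in 44 (0.106%), against 41 (0.416%) and 7 (0.071%) among clusters above an intensity of 100. With 12 mice, the median standard error of a diet effect was 0.06 on the log2 scale for such clusters. The values below are therefore those of genes whose difference did not pass the adjusted threshold, and "higher" and "lower" are used of the direction of the mean.

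The diet effects of the 2 genotypes were hardly correlated. Across clusters above an intensity of 100, the log2 difference in App knock-in mice and that in wild-type mice had a Pearson r of 0.03 and a Spearman rho of 0.04, and the same sign in 51.3% of clusters. Clusters are not independent replicates, but the 2 differences share no mouse. At an unadjusted p under 0.05, 967 clusters were higher on the HFD in App knock-in mice (2.34%) and 1220 in wild-type mice (2.95%), of which 87 were in both lists (9.0% of the App knock-in list and 7.13% of the wild-type list). For lower clusters, 944 in App knock-in mice (2.28%) and 940 in wild-type mice (2.27%) shared 43 (4.56% of the App knock-in list and 4.57% of the wild-type list). In opposite directions, 41 clusters were higher in App knock-in and lower in wild-type mice, and 58 lower in App knock-in and higher in wild-type mice. The interaction of diet and genotype had 0 clusters at an adjusted p under 0.05 (smallest adjusted p = 0.194) and 2054 at an unadjusted p under 0.05 (4.97%).

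Small nucleolar RNA genes leaned upward on the HFD, most of all those with a high signal. These short RNAs sit mostly in introns of other genes, C/D box RNAs (symbols Snord) guiding 2′-O-methylation and H/ACA box RNAs (Snora) guiding pseudouridylation of ribosomal RNA, while Scarna genes encode guide RNAs of Cajal bodies that act on spliceosomal RNAs. Of 50 clusters above an intensity of 100, for 49 genes, all 50 had a diet effect above 0, with a median of 0.21 and a range of 0.04 to 0.37, beside a median of 0.00 over all clusters above that intensity. At an unadjusted p under 0.05, 33 of the 50 were higher on the HFD and 0 were lower (66.0%, beside the 2.33% and 1.05% given above), and in 12 of them the HFD and RD values did not overlap. None passed the adjusted threshold, the smallest adjusted p from limma being 0.869. The group was singled out with these values known, and its members were chosen by symbol only.

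C/D box RNAs carried most of it. Of 33 C/D box clusters, 30 were higher at an unadjusted p under 0.05 (90.9%, median 0.23), against 3 of 12 H/ACA box clusters (25.0%, median 0.11) and 0 of 5 Cajal body clusters (median 0.12). The mean of the 33 C/D box clusters was 8.91, 9.02 and 8.95 in HFD-fed and 8.81, 8.81 and 8.73 in RD-fed wild-type mice. In App knock-in mice it was 8.93, 9.06 and 9.02 on the HFD and 8.72, 8.72 and 8.73 on the RD. Each of the 6 HFD-fed mice was thus above each of the 6 RD-fed mice, in both genotypes. The H/ACA box mean overlapped between the diets, from 8.50 to 8.68 in HFD-fed and from 8.396 to 8.56 in RD-fed mice. The 31 small nucleolar RNA clusters below an intensity of 100 had a median of 0.11, with 26 above 0 and 5 below 0, the lowest at -0.10, and with 6 higher and 0 lower at an unadjusted p under 0.05. Of all 81 clusters, 76 were above 0 in the average, 69 in App knock-in and 71 in wild-type mice.

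**Figure D1:**
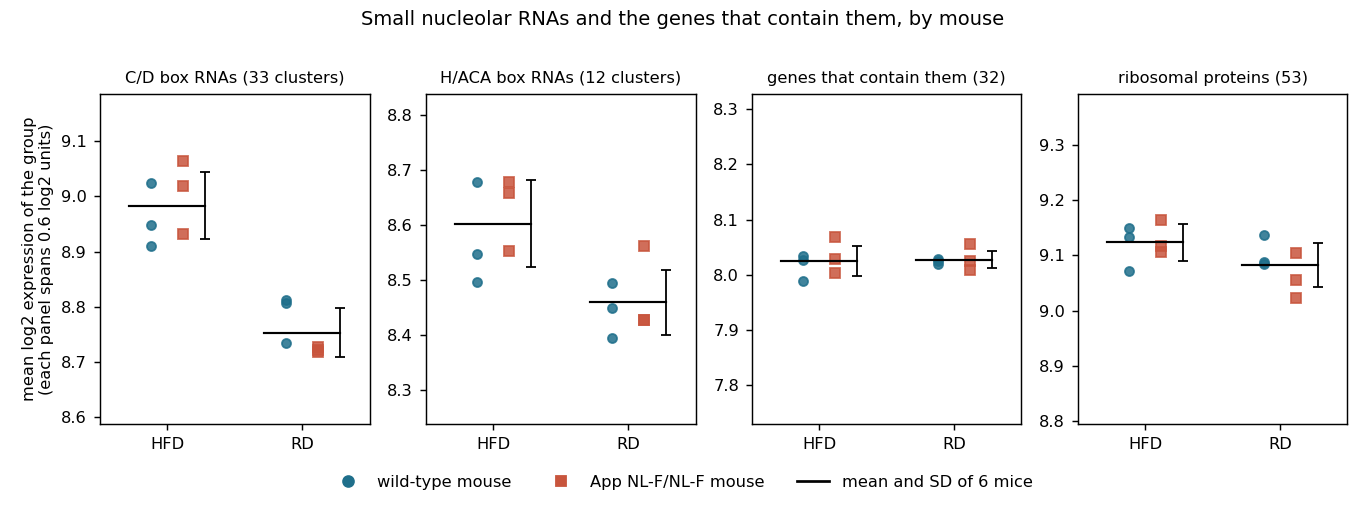
Mean log2 expression per mouse of C/D box RNAs, H/ACA box RNAs, the genes that contain small nucleolar RNAs, and ribosomal protein genes, in HFD-fed (left of each panel) and RD-fed mice; circles are wild-type mice, squares App knock-in mice, and lines the mean and SD of 6 mice. The 6 HFD-fed mice lie at 8.91 to 9.06 for C/D box RNAs, above all RD-fed mice at 8.72 to 8.81, while the containing genes lie at 7.99 to 8.07 and 8.01 to 8.06.

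The examples below were chosen after their values were seen. Snord61, a C/D box RNA in an intron of Rbmx, had 10.44, 10.58 and 10.73 as lowest, median and highest value in HFD-fed mice, against 10.21, 10.25 and 10.40 in RD-fed mice. Its diet effect was 0.29 (standard error 0.06), with 0.30 in App knock-in and 0.28 in wild-type mice. Snord104 had 9.48, 9.71 and 9.64 in HFD-fed and 9.32, 9.37 and 9.30 in RD-fed wild-type mice, and 9.60, 9.75 and 9.72 in HFD-fed and 9.23, 9.31 and 9.43 in RD-fed App knock-in mice. No RD-fed mouse reached the lowest HFD-fed one for either RNA. The widest difference was that of Snord66, at 0.37 (standard error 0.10), with 7.80 to 8.11 in HFD-fed and 7.36 to 7.79 in RD-fed mice. Snora33, an H/ACA box RNA within the ribosomal protein gene Rps12, had 11.86 to 11.99 in HFD-fed and 11.69 to 11.79 in RD-fed mice and a diet effect of 0.22 (standard error 0.05).

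The genes that contain these RNAs did not share the difference. By RefSeq coordinates 47 of the 50 clusters lay within another gene, strand not considered, and 38 of these could be set against a measured containing gene, 32 different genes in all. Of the 32, 17 were above 0 and 0 had an unadjusted p under 0.05, with a median diet effect of 0.00 and a range of -0.10 to 0.11. The small RNA clusters were all above an intensity of 100, but only 27 of the 32 containing genes were. In 37 of 38 pairs the small RNA had the larger diet effect. Rbmx, which encodes an RNA-binding protein of the spliceosome, had 0.04 (standard error 0.05), and Rps12 had 0.03 (standard error 0.05). The 2410006H16Rik transcript, which contains Snord49a and Snord65, had -0.01 (standard error 0.08), while Snord49a had 0.26 (standard error 0.05).

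**Figure D2:**
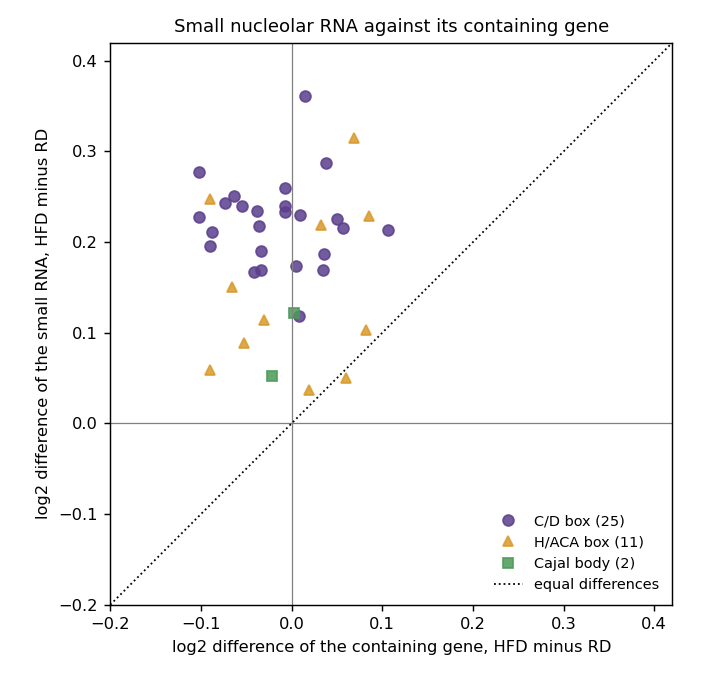
Diet effect (log2, HFD minus RD) of 38 small nucleolar RNA clusters on the vertical axis against that of the gene containing each on the horizontal axis, with a dotted line where both are equal. In 37 of 38 pairs the point lies above the line, and the containing genes lie on both sides of 0, from -0.10 to 0.11.

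Other short RNAs differed among themselves. Above an intensity of 100, 5 clusters annotated as small nuclear RNA were all above 0, with a median of 0.05 and 1 higher at an unadjusted p under 0.05. The highest of the 5, at 0.28, had the diet effect of Snord73b, a C/D box RNA already counted above, so the class was not separate from that group. Among 28 microRNA hairpin clusters 0 were higher and 1 lower, with a median of 0.01. At any intensity, 7 clusters annotated as small nuclear RNA, these 5 included, had a median of 0.10 and 3 higher. The 506 microRNA clusters had a median of 0.00 with 16 higher and 9 lower. Ribosomal protein genes, 53 clusters, had a median of 0.05 with 45 above 0 and 2 higher at an unadjusted p under 0.05, and protein-coding clusters above an intensity of 100 had 80 higher and 70 lower of 7093. Which fraction of short RNA the extraction kept in each sample was not tested, and probes inside an intron cannot tell the short RNA from unspliced RNA of its containing gene.

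Among the lists of known genes, those of vessel wall cells had the highest median. Of 14 genes of pericytes and smooth muscle, 7 were higher at an unadjusted p under 0.05 and 0 lower, 11 were above 0, and the median diet effect was 0.19. Over all clusters, 2.66% were higher and 2.3% lower at that threshold. The smooth muscle actin gene Acta2 had 7.79, 8.17 and 8.12 in HFD-fed and 6.88, 7.49 and 6.97 in RD-fed wild-type mice, and 8.12, 7.36 and 8.42 in HFD-fed and 7.25, 8.10 and 7.39 in RD-fed App knock-in mice. The diets did not overlap in wild-type mice, whereas in App knock-in mice 1 HFD-fed mouse lay among the RD-fed ones and 1 RD-fed mouse among the HFD-fed ones. Acta2 had the largest diet effect of any gene named by size, 0.65 (standard error 0.21; exact permutation p = 0.035), with 0.39 in App knock-in and 0.91 in wild-type mice. Acta2 stayed at an unadjusted p under 0.05 under every alternative run, while the count of 7 for the list became 4 without wild-type RD mouse 3, App knock-in RD mouse 3 or App knock-in HFD mouse 3.

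Further contractile genes went the same way. Myl9, a regulatory myosin light chain, had 6.68, 7.10 and 7.21 as lowest, median and highest value in HFD-fed against 6.53, 6.70 and 6.89 in RD-fed mice, a diet effect of 0.34 (standard error 0.10), and 5 of 6 HFD-fed mice were above every RD-fed one. Myh11, the smooth muscle myosin heavy chain, differed by 0.32 (standard error 0.11) and Cnn1, the actin-binding calponin, by 0.41 (standard error 0.18). Ppp1r14a, which encodes an inhibitor of myosin phosphatase, differed by 0.25 (standard error 0.09). Of pericyte genes, Kcnj8, a subunit of ATP-sensitive potassium channels, had 5.50 to 5.73 in HFD-fed and 4.98 to 5.50 in RD-fed mice, a diet effect of 0.33 (standard error 0.10; exact permutation p = 0.005, the smallest that 400 assignments allow). Vtn, the vitronectin gene, differed by 0.28 (standard error 0.11). Other pericyte markers had smaller or negative values, with -0.01 (standard error 0.06) for Rgs5, the brightest gene of the list, 0.08 (standard error 0.07) for the receptor gene Pdgfrb, -0.08 (standard error 0.08) for Notch3 and -0.18 (standard error 0.11) for Higd1b. Des, the muscle intermediate filament desmin, did not stand for both genotypes, with -0.06 in App knock-in and 0.47 in wild-type mice. Myh11, Cnn1, Kcnj8 and Des lay below an intensity of 100, with mean log2 values of 6.15, 4.38, 5.41 and 4.26. Notch3 and Higd1b also lay below it.

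Smooth muscle genes are controlled by serum response factor through the CArG box, which is shown for Myl9, the only one of 10 listed vessel wall genes with a promoter in the table whose window held it, against 1.63% of all windows. The RefSeq sequence lies at chr2:156775263-156775352 (plus strand, GRCm38.p6), 5′ to 3′, with the box in capitals, at -161 to -152 from the start.
Myl9: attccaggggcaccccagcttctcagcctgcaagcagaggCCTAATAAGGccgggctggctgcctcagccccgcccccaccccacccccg

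Endothelial genes showed a smaller difference of the same direction, with 3 of 16 higher and 0 lower at an unadjusted p under 0.05. Over all clusters the shares were 2.66% and 2.3%. Of the 16 genes, 14 were above 0, with a median of 0.11. Tek, the angiopoietin receptor, differed by 0.27 (standard error 0.10) at a mean log2 of 6.09, below an intensity of 100. Cdh5, the cadherin of endothelial junctions, differed by 0.21 (standard error 0.08) and Pltp, the phospholipid transfer protein gene, by 0.20 (standard error 0.06). For both vessel lists the wild-type mice had the larger median, with 0.03 in App knock-in and 0.31 in wild-type mice for pericytes and smooth muscle, and 0.03 in App knock-in and 0.21 in wild-type mice for endothelium. The count of 3 for endothelium became 1 without wild-type HFD mouse 2 or 3 or App knock-in HFD mouse 1, and the median of 0.11 became 0.06 without wild-type RD mouse 1 and 0.07 without wild-type HFD mouse 3.

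Markers of the meninges, the sheets that cover the brain and dip in with its vessels, moved alongside. All 11 meningeal fibroblast genes were above 0 in the average, with a median of 0.13 and 0 at an unadjusted p under 0.05. By genotype, 7 were above 0 in App knock-in and 11 in wild-type mice, with medians of 0.11 and 0.34 in that order. Their mean was 6.03, 6.16 and 6.18 in HFD-fed and 5.63, 6.17 and 5.55 in RD-fed wild-type mice, and 6.11, 5.71 and 6.42 in HFD-fed and 5.92, 6.29 and 5.84 in RD-fed App knock-in mice. The RD-fed mouse of each genotype with the highest meningeal mean was also the one with the highest Acta2, and the HFD-fed App knock-in mouse with the lowest meningeal mean had the lowest Acta2 of the HFD-fed mice. Without wild-type RD mouse 2 or App knock-in HFD mouse 2, 3 meningeal genes were at an unadjusted p under 0.05, and the meningeal median was 0.21 and 0.27 in that order, or 0.20 without App knock-in RD mouse 2. The part of meningeal tissue in the vessel result was not tested. Bgn, a proteoglycan gene, differed by 0.39 (standard error 0.15), Slc6a20a, an imino acid transporter gene, by 0.55 (standard error 0.18), and Efemp1, an extracellular matrix gene, by 0.28 (standard error 0.12); all are expressed in leptomeninges as well.

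Complement genes leaned upward. All 8 measured genes were above 0 in the average, with a median of 0.14. At an unadjusted p under 0.05, 4 were higher and 0 lower, beside 2.66% and 2.3% over all clusters. By genotype, 7 were above 0 in App knock-in and 6 in wild-type mice. C5ar1 had -0.20 in App knock-in and 0.30 in wild-type mice, and Itgb2 0.26 in App knock-in and -0.06 in wild-type mice. Of the 8 genes, 3 lay above an intensity of 100. C1qb, which encodes a chain of the initiator protein C1q, had 8.87, 8.87 and 8.83 in HFD-fed and 8.55, 8.64 and 8.66 in RD-fed wild-type mice, and 8.98, 9.10 and 9.06 in HFD-fed and 8.92, 8.84 and 8.96 in RD-fed App knock-in mice. Within each genotype every HFD-fed mouse was above every RD-fed mouse, which fixes the exact permutation p at 0.005. The diet effect of C1qb was 0.19 (standard error 0.05), and the other chains C1qa and C1qc had 0.16 (standard error 0.07) and 0.13 (standard error 0.06). Serping1, the inhibitor of C1 proteases, differed by 0.45 (standard error 0.16), with 6.10 to 6.90 in HFD-fed and 5.63 to 6.54 in RD-fed mice. The count of 4 became 2 without wild-type RD mouse 3, App knock-in RD mouse 1 or 2 or App knock-in HFD mouse 2.

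Phagocytic microglia genes followed in part, with 4 of 20 higher and 0 lower at an unadjusted p under 0.05, 17 above 0 and a median of 0.07. Over all clusters 2.66% were higher at that threshold. Without App knock-in RD mouse 1 the median was 0.02. Among the genes near 0 were Tyrobp at 0.00 (standard error 0.11), Cst7 at 0.00 (standard error 0.09) and Axl at 0.01 (standard error 0.05). Trem2 had 0.07 (standard error 0.08), Itgax -0.06 (standard error 0.09) and Cd63 -0.07 (standard error 0.10). Cd68, a lysosomal glycoprotein of phagocytes, had 7.45, 7.55 and 7.45 in HFD-fed and 7.06, 7.35 and 7.10 in RD-fed wild-type mice, and 7.71, 7.82 and 7.87 in HFD-fed and 7.54, 7.62 and 7.62 in RD-fed App knock-in mice. The diets separated within each genotype, which fixes the exact permutation p at 0.005, and the diet effect was 0.26 (standard error 0.06). Lyz2, the lysozyme gene of myeloid cells, behaved otherwise, with 5.98, 5.88 and 5.78 in HFD-fed and 5.12, 5.32 and 5.35 in RD-fed wild-type mice but 6.12, 6.03 and 5.97 in HFD-fed and 6.02, 6.08 and 5.97 in RD-fed App knock-in mice. Only the RD-fed wild-type mice were low, and its diet effect of 0.31 (standard error 0.06) averages 0.01 in App knock-in and 0.61 in wild-type mice, and the interaction was -0.60 (standard error 0.12; adjusted p = 0.814 from limma). The chemokine gene Ccl6 and the leukocyte antigen gene Ptprc differed by 0.22 (standard error 0.07) and 0.21 (standard error 0.09). Of the 20 phagocytic genes, 9 lay above an intensity of 100. Lyz2, Ccl6 and Ptprc did not, with mean log2 values of 5.80, 4.35 and 4.97. Genes of the resting state of microglia gave 0 of 13 at an unadjusted p under 0.05 and a median of 0.05. With genotype left out of the model, 0 phagocytic microglia genes and 2 complement genes were at an unadjusted p under 0.05.

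Reactive astrocyte genes had 5 of 12 higher and 0 lower at an unadjusted p under 0.05, beside 2.66% and 2.3% over all clusters. Of the 12, 10 were above 0, with a median of 0.12. Lcn2, a secreted iron-siderophore carrier, had 6.58, 6.74 and 6.40 in HFD-fed and 5.58, 4.76 and 4.83 in RD-fed App knock-in mice, and 5.39, 5.70 and 6.90 in HFD-fed and 5.06, 6.14 and 4.58 in RD-fed wild-type mice. The diets were apart in App knock-in mice and overlapped in wild-type mice. Its diet effect was 1.13 (standard error 0.31; exact permutation p = 0.02), the only named value above 1 on the log2 scale. Cp, the copper-binding ferroxidase ceruloplasmin, differed by 0.30 (standard error 0.10), Timp1, a metalloproteinase inhibitor, by 0.27 (standard error 0.09), Osmr, the oncostatin M receptor, by 0.23 (standard error 0.08), and the protease inhibitor gene Serpina3n by 0.21 (standard error 0.09). Of the 12 genes, 5 lay above an intensity of 100. Timp1 and Lcn2 did not, with mean log2 values of 3.08 and 5.72, and Timp1 was below the array medians of 4.78 to 4.84. Gfap and Vim, with 0.11 (standard error 0.06) and 0.13 (standard error 0.06), did not reach an unadjusted p under 0.05. Cd44 and Aspg had -0.02 (standard error 0.09) and -0.04 (standard error 0.08). Genes of resting astrocytes had 2 of 12 above 0, a median of -0.03 and 0 at an unadjusted p under 0.05.

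Immune genes outside these lists included Ifitm3, an interferon-induced membrane protein gene, with 7.95, 8.08 and 8.21 as lowest, median and highest value in HFD-fed against 7.33, 7.67 and 7.98 in RD-fed mice and a diet effect of 0.39 (standard error 0.11). In antigen presentation 10 of 11 genes were above 0 with a median of 0.15, and Tap2, a subunit of the peptide transporter, was the 1 at an unadjusted p under 0.05, at 0.24 (standard error 0.09); the class I gene H2-K1 had 0.24 (standard error 0.12). Tap2 and H2-K1 lay below an intensity of 100, with mean log2 values of 4.92 and 6.24. The interferon response list had 9 of 13 above 0 and a median of 0.05, and cytokines and inflammasome 7 of 14 and 0.00, both with 0 at an unadjusted p under 0.05.

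**Figure D3:**
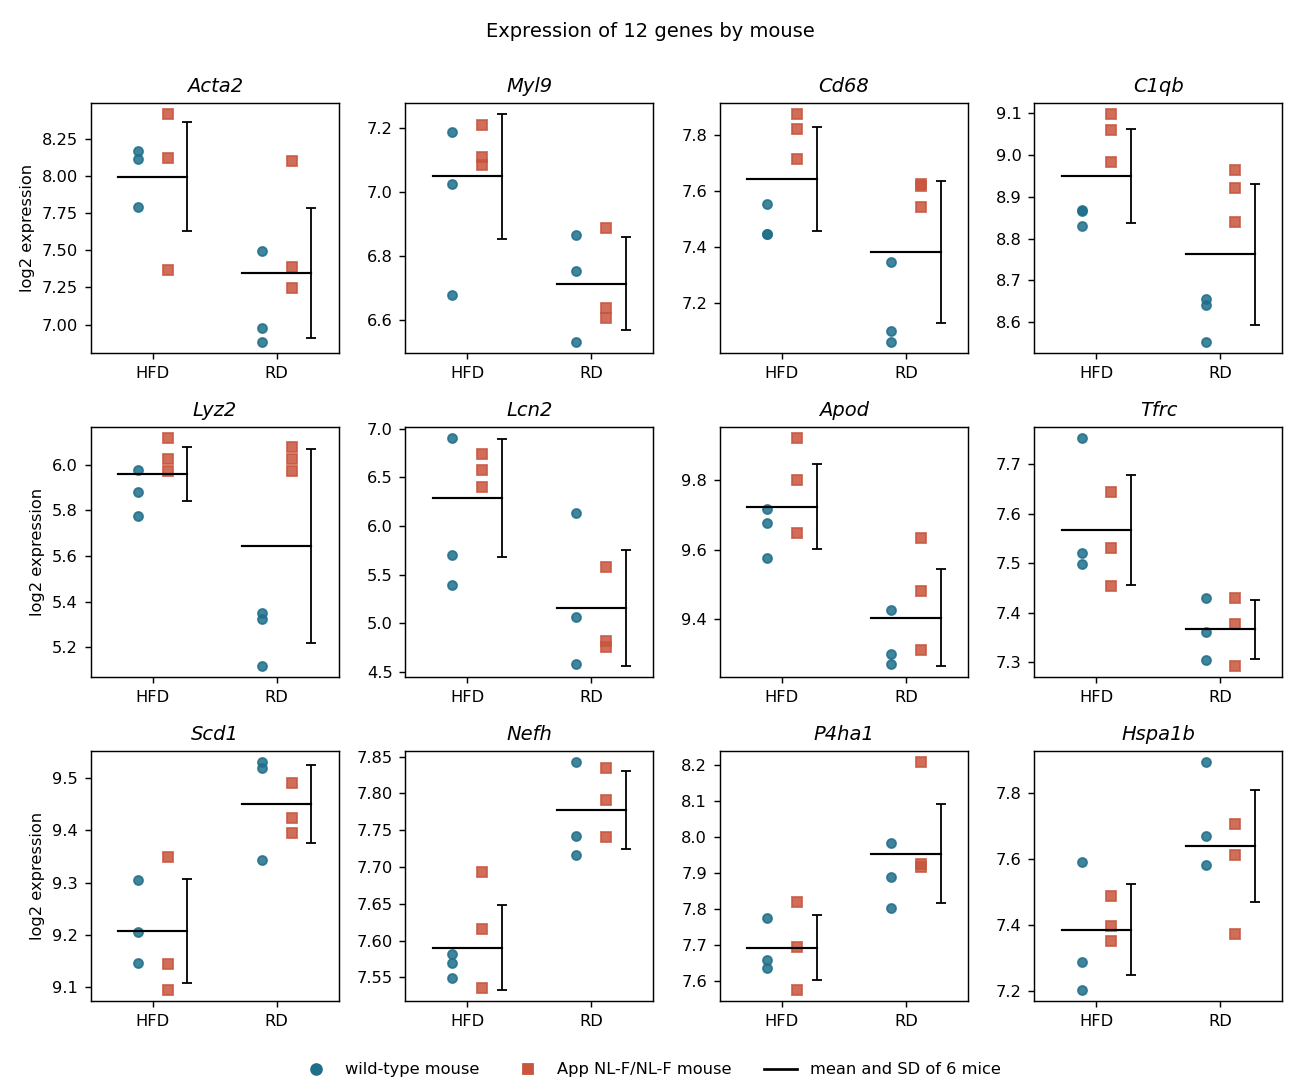
Log2 expression of 12 genes in HFD-fed (left of each panel) and RD-fed mice; circles are wild-type mice, squares App knock-in mice, and lines the mean and SD of 6 mice. Nefh and Tfrc separate the diets over all 12 mice, Cd68 and C1qb do so within each genotype, and Lyz2 is low in RD-fed wild-type mice alone.

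Myelin genes leaned upward, with 13 of 14 above 0, a median of 0.15 and 1 at an unadjusted p under 0.05. That gene was Cldn11, the claudin of myelin tight junctions, with 9.82 to 10.15 in HFD-fed and 9.59 to 9.93 in RD-fed mice and a diet effect of 0.18 (standard error 0.07). Mag, the myelin-associated glycoprotein, had 0.23 (standard error 0.11) with 8.62 to 8.98 in HFD-fed and 8.20 to 8.86 in RD-fed mice. Among precursor genes Olig2, the lineage transcription factor, differed by 0.21 (standard error 0.09), the 1 of 9 at an unadjusted p under 0.05. The myelin count of 1 was 0 to 5 with single mice left out, being 0 without wild-type RD mouse 2, wild-type HFD mouse 1, App knock-in RD mouse 1 or App knock-in HFD mouse 1. The myelin median was 0.08 without App knock-in RD mouse 1.

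Single genes with a diet effect alike in both genotypes included Apod, which encodes the lipid carrier apolipoprotein D. It had 9.72, 9.58 and 9.68 in HFD-fed and 9.30, 9.43 and 9.27 in RD-fed wild-type mice, and 9.92, 9.65 and 9.80 in HFD-fed and 9.31, 9.64 and 9.48 in RD-fed App knock-in mice. Within each genotype all HFD-fed mice were above all RD-fed ones, which fixes the exact permutation p at 0.005. The diet effect of 0.32 (standard error 0.07) was 0.31 in App knock-in and 0.33 in wild-type mice. Apod was the 1 of 13 lipid carrier and efflux genes at an unadjusted p under 0.05, beside a list median of 0.03. Tfrc, the transferrin receptor through which cells take up iron, had 7.45, 7.53 and 7.75 as lowest, median and highest value in HFD-fed and 7.29, 7.37 and 7.43 in RD-fed mice, with no overlap and a diet effect of 0.20 (standard error 0.06). Fth1, the heavy chain of the iron store ferritin, also did not overlap, at 12.54 to 12.61 in HFD-fed and 12.43 to 12.54 in RD-fed mice, but the ranges met within rounding and the diet effect was 0.06 (standard error 0.05). Creb5, a transcription factor gene, differed by 0.26 (standard error 0.07) and Ep400, a chromatin remodeller gene, by 0.21 (standard error 0.06). Dpagt1, an enzyme of N-glycosylation, differed by 0.16 (standard error 0.05) and Dcp1a, an mRNA decapping factor gene, by 0.10 (standard error 0.05). All were without overlap, which was itself a rule for naming genes. Upward, 8 of 7093 protein-coding clusters above an intensity of 100 met it, beside 0.416% of all clusters above that intensity. The cationic amino acid transporter gene Slc7a1, Ptcd3 of the mitochondrial ribosome and Sez6l2 had 0.24, 0.24 and 0.24.

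Heat shock chaperone genes leaned downward on the HFD. None of 11 genes was above 0, and the median was -0.07. At an unadjusted p under 0.05, 3 were lower and 0 higher, beside 2.3% and 2.66% over all clusters. Hspa1b and Hspa1a, which encode the inducible heat shock protein 70, differed by -0.25 (standard error 0.09) and -0.27 (standard error 0.11), and since the 2 genes are near-identical, their probes cannot be taken as separate measurements. Hspa1b had 7.20, 7.37 and 7.59 as lowest, median and highest value in HFD-fed mice against 7.37, 7.64 and 7.89 in RD-fed mice. Hsph1, which encodes a large chaperone of the same family, had 9.26 to 9.53 in HFD-fed and 9.43 to 9.57 in RD-fed mice and a diet effect of -0.12 (standard error 0.05). Dnajb1, a co-chaperone gene, had -0.18 (standard error 0.09). The count of 3 became 1 without wild-type RD mouse 2, wild-type HFD mouse 3, App knock-in RD mouse 2 or 3 or App knock-in HFD mouse 1 or 2.

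These genes respond to heat shock factors through heat shock elements, repeats of the unit GAA in alternating orientation, so the stretch that holds one is shown for the 2 genes lowest on the HFD, with a pair of units (GAA, any 2 bases, TTC) in capitals, and for Hsph1 with 3 units (TTC, any 2 bases, GAA, any 2 bases, TTC, the complement of a run that starts and ends in GAA) in capitals. The RefSeq sequences are 5′ to 3′ on the gene's strand, build GRCm38.p6, and lie at chr17:34972213-34972300 (minus strand), chr17:34959295-34959382 (minus strand) and chr5:149636287-149636308 (minus strand).
Hspa1a: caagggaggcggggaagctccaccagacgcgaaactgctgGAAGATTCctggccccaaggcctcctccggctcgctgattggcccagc
Hspa1b: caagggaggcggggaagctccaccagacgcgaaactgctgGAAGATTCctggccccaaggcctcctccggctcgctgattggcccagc
Hsph1: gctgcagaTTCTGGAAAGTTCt
The pair lies at -104 to -97 from the start in both Hspa1 genes, whose 300-base promoter windows, from 250 bases before to 50 after the start, were equal at 296 of 300 positions. In Hsph1 the 3 units lie downstream of the start, at 36 to 48. Searched on both strands, the pair was in windows of 6 of 8 chaperone genes with a promoter in the table and in 7.86% of all 32851 windows. The 3 units, which contain the pair, were in 3 of 8 and in 0.603%. The 6 include both Hspa1 genes, whose windows are not independent. The 8 genes had 11 windows, so a count of genes and a share of windows are unlike measures. A match is a description and not a site.

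Cholesterol synthesis genes leaned downward and Scd1 was lower on the HFD. In cholesterol synthesis 1 of 16 genes was above 0, the median was -0.09, with -0.09 in App knock-in and -0.07 in wild-type mice, and 1 was at an unadjusted p under 0.05. Without wild-type RD mouse 2 the median was -0.06. The gene past that threshold was Mvd, a decarboxylase of the mevalonate pathway, with 5.91 to 6.19 in HFD-fed and 6.02 to 6.42 in RD-fed mice and a diet effect of -0.19 (standard error 0.07). Mvd lay below an intensity of 100, with a mean log2 of 6.14. The demethylase gene Cyp51 and the sterol sensor gene Insig1 had -0.13 (standard error 0.06) and -0.12 (standard error 0.06). Scd1, the desaturase that makes oleate, had 9.31, 9.20 and 9.15 in HFD-fed and 9.53, 9.52 and 9.34 in RD-fed wild-type mice, and 9.35, 9.09 and 9.14 in HFD-fed and 9.40, 9.42 and 9.49 in RD-fed App knock-in mice. Every HFD-fed mouse was below every RD-fed mouse of its genotype, which fixes the exact permutation p at 0.005. The diet effect was -0.24 (standard error 0.06), with -0.24 in App knock-in and -0.25 in wild-type mice. The other fatty acid synthesis genes had values on either side, with 3 of 13 genes above 0 and a median of -0.04, and fatty acid oxidation had 11 of 17 above 0, a median of 0.01 and 0 at an unadjusted p under 0.05. The sterol regulatory element (TCAC, any base, CCAC, on either strand) was in a promoter window of 1 of 12 cholesterol synthesis genes, which had 14 windows, and in 1.24% of all windows.

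In insulin, IGF and adipokine signalling 4 of 20 genes were above 0, the median was -0.03 and 1 was at an unadjusted p under 0.05. Slc2a4, the insulin-responsive glucose transporter, had 4.72, 4.83 and 5.02 as lowest, median and highest value in HFD-fed and 4.84, 5.03 and 5.24 in RD-fed mice, a diet effect of -0.18 (standard error 0.08), at a level below an intensity of 100. The phosphatidylinositol 3-kinase subunit genes Pik3r3 and Pik3r1 had -0.19 (standard error 0.08) and -0.11 (standard error 0.05). Ppp1r3c, which targets a phosphatase to glycogen, had 7.52 to 7.78 in HFD-fed and 7.58 to 7.96 in RD-fed mice and a diet effect of -0.21 (standard error 0.07).

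Nefh, the heavy neurofilament chain of large axons, had 7.57, 7.55 and 7.58 in HFD-fed and 7.72, 7.84 and 7.74 in RD-fed wild-type mice, and 7.69, 7.54 and 7.62 in HFD-fed and 7.79, 7.74 and 7.83 in RD-fed App knock-in mice. No HFD-fed mouse reached the lowest RD-fed one, and the diet effect was -0.19 (standard error 0.05), with -0.17 in App knock-in and -0.20 in wild-type mice. Nefm, the medium chain, had -0.14 (standard error 0.06), while the list of 13 neurofilament and cytoskeleton genes had a median of -0.03. P4ha1, a collagen prolyl hydroxylase gene, had 7.58, 7.68 and 7.82 as lowest, median and highest value in HFD-fed and 7.80, 7.92 and 8.21 in RD-fed mice, and its diet effect of -0.26 (standard error 0.07) was the largest decrease of any gene named by size other than Hspa1a. Sub1, a transcriptional coactivator gene, Mat2b, a regulatory subunit of methionine adenosyltransferase, and Rabep1, of endosome fusion, did not overlap between the diets. They had -0.14 (standard error 0.05), -0.16 (standard error 0.06) and -0.10 (standard error 0.04). Lack of overlap was a rule for naming them. Downward, 6 of 7093 protein-coding clusters above an intensity of 100 met it, beside 0.071% of all clusters above that intensity. Further genes lower by -0.19 to -0.23 were Gtf2e2 and Taf12 of the basal transcription machinery, the RNA-binding protein gene Hnrnph2, Spin1, the cadherin gene Cdh12, and the zinc finger genes Zfp11 and Zfp931.

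**Figure D4:**
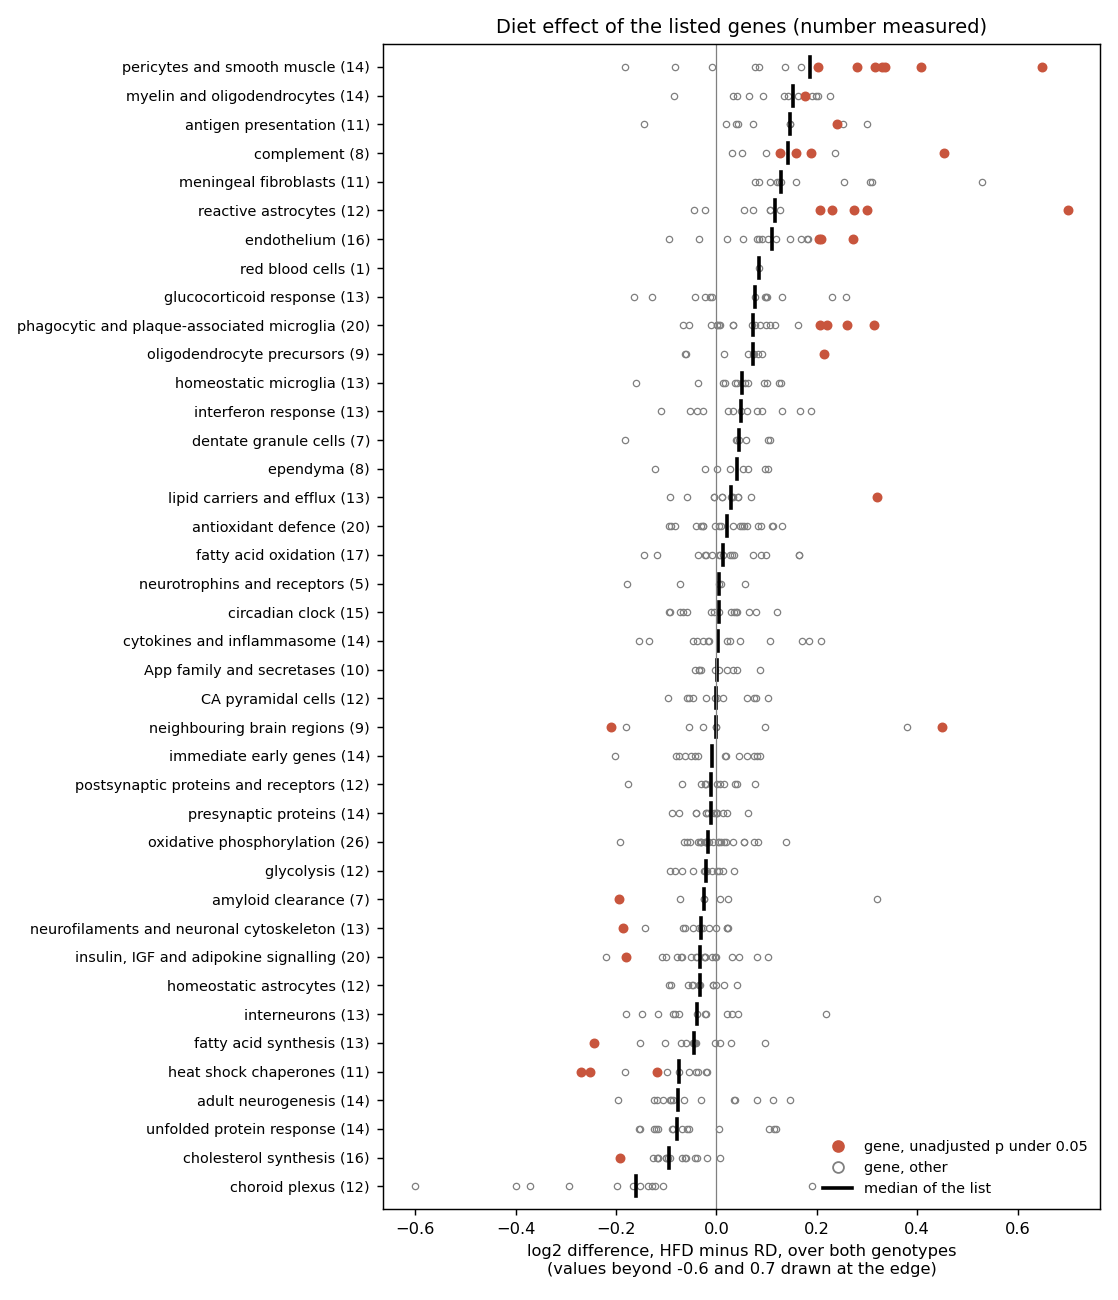
Diet effect (log2, HFD minus RD) of each measured gene of the 40 lists, 1 row per list with the number of genes measured, sorted by median; filled points are genes at an unadjusted p under 0.05 and bars the medians. Pericytes and smooth muscle lead with a median of 0.19, and cholesterol synthesis and choroid plexus stand lowest at -0.09 and -0.16.

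The other lists gave few or no genes. Of 508 different genes measured in 40 lists, 28 were higher and 9 lower at an unadjusted p under 0.05 (5.51% and 1.77%, beside 2.66% and 2.3% over all clusters), and 24 lists had none. App itself had 11.59 to 11.70 in HFD-fed and 11.57 to 11.68 in RD-fed mice, a diet effect of 0.00 (standard error 0.04), and its family and secretases a median of 0.00 with 0 of 10 at an unadjusted p under 0.05. Among 7 genes of amyloid clearance Mme, the Aβ-degrading enzyme neprilysin, was the 1 at an unadjusted p under 0.05, at -0.19 (standard error 0.07), as an average of -0.03 in App knock-in and -0.36 in wild-type mice. Presynaptic and postsynaptic proteins had medians of -0.01 and -0.01, oxidative phosphorylation -0.02, glycolysis -0.02, antioxidant defence 0.02, adult neurogenesis -0.08, the circadian clock 0.00, the glucocorticoid response 0.08, the unfolded protein response -0.08 and immediate early genes -0.01, all with 0 at an unadjusted p under 0.05. The value for immediate early genes averaged a median of -0.11 in App knock-in mice, with 3 of 14 above 0, and 0.15 in wild-type mice, with 12 of 14 above 0; the difference between the genotypes was not tested for the list. Ttr had a diet effect of -0.97 (standard error 1.02; exact permutation p = 0.47), and the ranges of the diets overlapped; it was -1.64 without App knock-in RD mouse 1. The choroid plexus list had 1 of 12 genes above 0 and a median of -0.16, with 0 above 0 and -0.45 in App knock-in mice and 10 above 0 and 0.09 in wild-type mice, and 0 genes at an unadjusted p under 0.05.

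Markers of neighbouring brain regions had 1 gene higher and 1 lower of 9. Tcf7l2, a transcription factor gene of the thalamus, had 6.08, 6.21 and 7.26 as lowest, median and highest value in HFD-fed and 5.63, 5.95 and 6.17 in RD-fed mice, and the highest value belonged to a single App knock-in mouse. Its diet effect was 0.45 (standard error 0.19), and 0.27 without that mouse. Tcf7l2 lay below an intensity of 100, with a mean log2 of 6.16. Tshz2 had -0.21 (standard error 0.09).

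**Figure D5:**
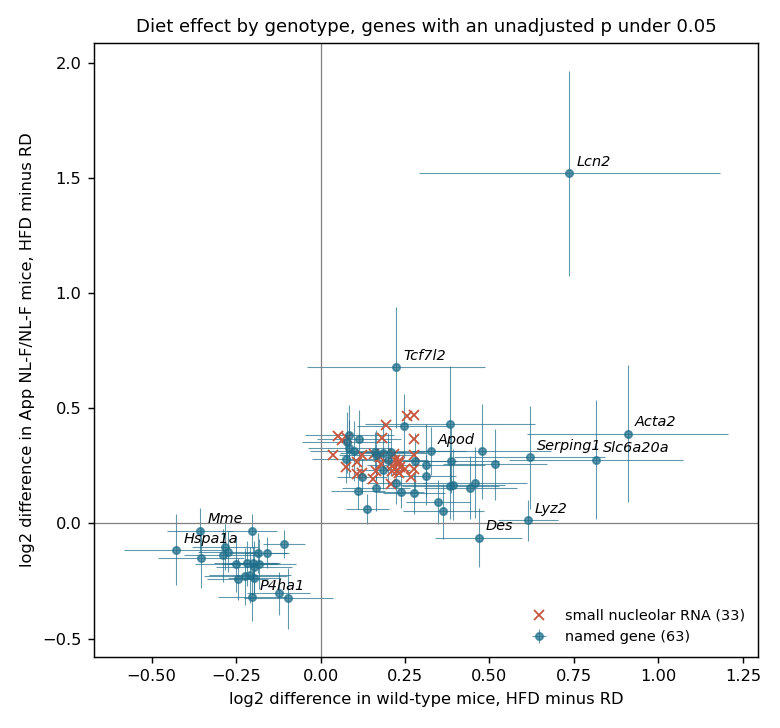
Diet effect (log2, HFD minus RD) in App knock-in mice on the vertical axis against that in wild-type mice on the horizontal axis, for 63 named genes with standard errors and 33 small nucleolar RNA clusters (crosses), all with an unadjusted p under 0.05 for the average of both. Lyz2 and Des lie near 0 in App knock-in mice at 0.61 and 0.47 in wild-type mice, Mme at -0.03 and -0.36, and Apod and Scd1 near equal values in both.

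Taking the 63 named genes at an unadjusted p under 0.05 as a whole, 41 were higher and 22 lower on the HFD, and their adjusted p-values from limma lay between 0.869 and 0.995. An effect of the same sign in both genotypes was found for 62, the exception being Des, but a gene needs a like direction in both genotypes to stand out in the average, so this count follows from the choice. The interaction had an unadjusted p under 0.05 for 3 of them, and the smallest adjusted p = 0.814 of these from limma.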

How the data were processed

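Hippocampal RNA of 12 mice, 1 Affymetrix Mouse Gene 2.0 ST array each, was grouped by genotype and diet as the sample labels give it. The log2 values, 1 per transcript cluster and array, were deposited by the authors after processing in Transcriptome Analysis Console. For probe summarisation and between-array scaling, the method was not given in the sources used here. Values were used as they stood, with 0 columns left unmapped. Of 41345 clusters, 23521 had 1 symbol in the platform's annotation, 1820 several and 16004 none; a gene was represented by its cluster with the highest mean. A model of 4 group means was fitted in limma 3.58.1 (R 4.3.3; lmFit, eBayes), tested on simulated data first, with Benjamini-Hochberg adjustment across all clusters. Exact permutation tests for single genes, two-sided and unadjusted, exchanged diet labels within genotype over all 400 assignments, which allow no p under 0.005. That value follows wherever the diets separate in the same direction within both genotypes. Genes were named from the same values, so the permutation p is a description and not a further test. P-values from limma set a difference against the spread between these mice, moderated across clusters, and the number of mice limits precision.

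The members, the 40 gene lists (508 of 561 entries measured) and the tests were chosen with earlier results of these data known. Named by rule were genes with an adjusted p under 0.05, the 15 largest increases and 15 largest decreases with a mean intensity of at least 100, an unadjusted p under 0.05 and the same sign in both genotypes, list members with the smallest p, up to 10 genes in each direction whose 6 and 6 values do not overlap, and Ttr and App. Predicted genes and small RNAs were counted but not named by this rule. Alternatives were the replicate number as a block, other normalizations, spread models, weights and covariates, and each array left out.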

Additional observations from a re-analysis of the deposited data

Results flagged for a closer look

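In 5 of 158 sets, 79 genes in 2 diets, 1 of the 6 mice of a diet stood apart, its gap to the next mouse taking up more of the range than Dixon's 95% critical value for 6 mice; chance flags about 1 set in 20. Among HFD-fed mice, Myl9 had 6.68 in the first wild-type mouse against 7.03 to 7.21 in the others (share of the range 0.656), and without it the diet effect was 0.41. Tcf7l2 had 7.26 in the first App knock-in mouse against 6.08 to 6.36 (share 0.768), and Hspa1a 7.85 in the third App knock-in mouse against 7.18 to 7.40 (share 0.662), which gave a diet effect of -0.36 without it. Gtf2e2 had 6.77 in the second wild-type mouse against 6.55 to 6.61 (share 0.736; -0.25 without it). Among RD-fed mice, Ttr had 9.14 in the first App knock-in mouse against 12.17 to 13.24 (share 0.739), and the diet effect was -1.64 without it.

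Among the same 79 genes, the interaction of diet and genotype, App knock-in minus wild-type, had an unadjusted p under 0.05 for Lyz2 at -0.60, for Des at -0.53 and for Mme at 0.33, none with an adjusted p under 0.05 from limma.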

How the results depend on the processing

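No cluster was called under 8 of the alternatives with all 12 arrays, replicate block included (smallest adjusted p = 0.663, with 1198 higher and 1114 lower at an unadjusted p under 0.05). Same-numbered mice had deviations correlated at -0.09 to 0.33, above 0.1 in 7 of 18 pairs. All 3 pairs of wild-type HFD and RD mice were above 0.1 (0.109 to 0.331) but 1 of 3 pairs of App knock-in HFD and RD mice, and the labels give the numbers no meaning, so the mice were not taken as paired. With the block, 57 of 68 named genes stayed at an unadjusted p under 0.05, and heat shock chaperones had 2 lower genes. Testing only clusters above an intensity of 100 called 3, all without a symbol, with 406 higher and 265 lower, on fewer clusters. Leaving out single arrays gave 0 to 1 calls, the 1 without App knock-in HFD mouse 2, with 1054 to 1227 higher and 856 to 1121 lower. Among clusters above an intensity of 100, 68.9% of those at an unadjusted p under 0.05 were higher, against 57.9% after median centring (206 higher, 150 lower).

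The count of higher small nucleolar RNA clusters, 33 of 50, was 25 to 34 with single arrays left out and 33 to 38 otherwise. Testing only clusters above an intensity of 100 left 5 of the 14 genes of pericytes and smooth muscle in the test, 3 of them higher. Cholesterol synthesis had 1 to 3 lower genes with single arrays left out. Of 68 named genes at an unadjusted p under 0.05, small nucleolar RNAs included, none changed sign, 48 to 56 stayed under it with single arrays left out and 36 under every alternative. App, at 0.00, changed sign with quantile normalization (-0.00264), median centring (-0.00191) and 3 of the arrays left out, the range over all being -0.00485 to 0.0141.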
